A study of Rattus with 52 samples.

Results

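The effect of peritoneal dialysis on the left ventricle (LV) that was common to rats with and without chronic kidney disease was measured in 26 of the 52 RNA libraries of the study. These are all its LV libraries, 13 from rats that received dialysate exchanges (PD) and 13 from rats that did not (Control). Every rat was a male Sprague Dawley rat that underwent either a sham operation (Sham) or removal of 5/6 of its kidney mass (5/6Nx) at 10 weeks of age, and every rat, Control rats included, carried a peritoneal catheter, placed together with removal of the omentum. PD rats then had 3 exchanges of dialysate per day for 8 days, and the study lasted 7 weeks. The labels give 6 Sham and 7 5/6Nx rats in PD and the same numbers in Control. The 5/6Nx operation is a model of chronic kidney disease by loss of tissue. Control rats had no fluid in place of dialysate, so the effect of PD here cannot be told apart from that of filling and draining the peritoneum. The study also reports that PD rats ate less than Control rats, and that a new catheter was placed after each day's exchanges. The effects of these cannot be told apart from that of PD either. PD and Control were compared in 1 additive fit with surgery as a second term, and the PD term is the average effect over both operations. Whole pulverized LV tissue was sequenced, so a change in the share of a cell type and a change in RNA per cell cannot be told apart.

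The LV libraries held 31.0 to 111.8 M reads in genes (M, mega; median 40.5 M), with medians of 42.2 M in PD and 37.3 M in Control. The heart gene Myh6, for alpha myosin, stood at a median of 1003630.0 reads normalized to library size in LV against 2.36 in the kidney libraries of the same study. Umod, made by the kidney tubule, had a median of 0 in LV, although the highest LV library had 122 normalized reads. Values are given below in normalized reads. The deposited values, on which tests were run, are on a log2 scale that flattens at low values, where 10, 100 and 1000 normalized reads stand at 6.50, 7.67 and 10.13. Log2 changes are thus too small for genes with few reads, and the ratio of mean normalized reads (the fold) is given beside them.

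Neutrophils are short-lived blood leukocytes that are released from the bone marrow in inflammation. They carry proteases and antimicrobial proteins in granules, and leave the blood after selectins and adhesion molecules on the endothelium have slowed and arrested them. The endoplasmic reticulum (ER) of every cell holds chaperones that fold secreted and membrane proteins and that are induced together in the unfolded protein response, while cytosolic heat shock proteins answer to heat and other protein damage. The heart also has a circadian clock, whose output transcription factors cycle over the day. The hour at which tissue was taken is not given in the sources used here.

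Among 16312 genes tested, 68 differed between PD and Control at a Benjamini-Hochberg adjusted p under 0.05 in limma. Of these, 57 were higher in PD (0.349% of the genes tested) and 11 were lower (0.0674%). At an unadjusted p under 0.05 there were 695 higher (4.26%) and 599 lower genes (3.67%). The median log2 change over all genes tested was -0.01. Genes of neutrophils led the order by adjusted p, followed by endothelial adhesion molecules, ER chaperones and heat shock proteins. In 4 genes (0.0245%) every PD library was above every Control library, and in 0 genes every PD library was below. These were Mmp9, Mmp8, Cd177 and LOC100909700. All 68 genes had the same direction in Sham and in 5/6Nx rats, but a fit with a common PD term favors genes that move alike. Agreement in direction is thus largely set by how the genes were chosen.

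Mmp9, matrix metalloproteinase 9 or gelatinase B, a protease stored in neutrophil granules that macrophages and other cells make as well, had 45.5 to 237 (median 101) normalized reads in the 13 Control libraries and 267 to 708 (median 382) in the 13 PD libraries. The groups did not overlap, although 1 Control library, replicate 6 of 5/6Nx, came near with 237. It rose 4.35-fold (log2 change 1.44, standard error 0.11, adjusted p = 2.6e-09), the smallest adjusted p of all genes. Mmp8, the neutrophil collagenase, had 149 to 947 (median 536) in Control against 1186 to 2235 (median 1856) in PD. The ranges were again apart in both operations, and Mmp8 rose 3.30-fold (log2 change 1.62, standard error 0.17, adjusted p = 2.13e-06). The other 14 tested metalloproteinases and their inhibitors, Mmp2, Mmp14 and Timp1 among them, did not pass the test, with changes of -0.20 to 0.24 on the log2 scale. The median over all 16 was 0.18 in Sham and -0.14 in 5/6Nx rats. For 1 of them the change was called different between the operations (interaction test).

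Cd177, a surface protein of neutrophils, was at 0 reads in 8 of 13 Control libraries and at 12.5 normalized reads in the highest, while PD libraries had 18.6 to 247 (median 53.7). It was thus found in every PD library and in few Control libraries, and the highest values came from Sham PD replicate 5 (247) and 5/6Nx PD replicate 7 (179). On mean reads it rose 25.7-fold (log2 change 1.24, standard error 0.16, adjusted p = 5.87e-05). LOC100909700, which the study names together with Cd177, had reads in 3 of 13 Control libraries (highest 6.59) and 15.7 to 152 normalized reads in PD (log2 change 1.08, standard error 0.12, adjusted p = 4.93e-06). The pair had equal numbers of reads in 10 of 26 libraries, 8 of which held 0 for both, so the division of reads between these loci is uncertain. Both are counted in the neutrophil list below. In the study, however, antibody staining of LV for CD177 was stronger with PD after either operation, and was described in nuclei and cytoplasm of cardiomyocytes. Which cells held the RNA counted here was not tested.

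Most tested neutrophil genes rose. Of the 23 listed genes found in the table, 20 were tested, and 12 of these rose (60.0%, against 0.349% of all genes), 0 fell, and 14 were higher at an unadjusted p under 0.05 (70.0%, against 4.26% of all genes). Their median log2 change was 0.58, against -0.01 for all genes. This list, like every other gene list here, was written with results of these data known. The share of called members in each list is thus a description. S100a8, a partner in the calprotectin pair that fills the neutrophil cytosol, had 430.3 to 3192 (median 1689) normalized reads in Control against 2039 to 7853 (median 4222) in PD. It was above all of Control in 11 of 13 PD libraries and rose 2.76-fold (log2 change 1.51, standard error 0.24, adjusted p = 0.00125). Its partner S100a9 rose 2.21-fold (adjusted p = 0.00653), with 9 PD libraries above all of Control. Both were lowest among PD libraries in 5/6Nx PD replicate 6.

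Retnlg, a resistin-like protein of rodent myeloid cells, had 22.1 to 203 (median 92.9) normalized reads in Control against 147 to 576 (median 262) in PD, a 2.91-fold rise (adjusted p = 0.000712). Camp, the cathelicidin precursor of neutrophil granules, went from 0 to 60.8 (median 16.9) to 20.5 to 99.3 (median 67.8), rising 3.58-fold (adjusted p = 0.00325). Olfm4, an olfactomedin of specific granules, was at or under 17.0 in Control and had a median of 41.1 in PD, where Sham PD replicate 3 alone had 0 and the other 12 libraries lay above all of Control. It rose 6.46-fold (adjusted p = 0.00920), a call lost in 5 of the 13 other settings that tested it (highest adjusted p 0.290). Fpr1, the formyl peptide receptor, Il1r2, the interleukin-1 decoy receptor, and Padi4, which citrullinates histones in neutrophil extracellular traps, also rose, 2.81-, 2.54- and 1.85-fold (adjusted p = 0.00653, 0.0196 and 0.0348).

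Other genes best known from mature neutrophils gave values without a call. Csf3r, the G-CSF receptor, had medians of 716 normalized reads in Control and 1059.7 in PD (log2 change 0.22, standard error 0.24, adjusted p = 0.909). Cxcr2, the receptor for neutrophil chemokines, was at 0.28 and Lcn2, lipocalin 2, at 0.14 (adjusted p = 0.738 and 0.924). For each of these 3 genes the Control and PD ranges overlapped nearly throughout. Ltf had no read in LV, and Mpo and Prtn3, granule proteins of early precursors, had reads in 2 LV libraries each and were not tested.

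Blood was not removed in any step that the sources name, and markers of other blood cells stood beside these values. Of 13 tested erythroid genes 0 were called in limma, but all 13 had a positive change (median 0.48). An unadjusted p under 0.05 was found in 10 (76.9%, against 4.26% of all genes). Their summed reads ran from 155493 to 1496580 in Control and from 354715 to 1165330 in PD. In Sham rats the sums did not overlap (351754 to 628172 in Control, 739519 to 963172 in PD) and 9 of the 13 genes were called in the fit of Sham rats alone. In 5/6Nx rats they ran from 155493 to 1496580 and from 354715 to 1165330, with 0 called alone, and the highest Control sum was that of replicate 1 (836070.0 without it). In Sham rats erythroid and neutrophil sums were thus both higher in every PD library than in every Control library. Among Sham PD libraries, replicate 6 had the lowest neutrophil sum (13322), with an erythroid sum of 912651 and a platelet sum of 4955. Replicate 5 had the highest neutrophil sum (28243), with an erythroid sum of 845164 and a platelet sum of 18324. Of 7 platelet genes 1 rose (14.3%, against 0.349% of all genes), and 5 were higher at an unadjusted p under 0.05 (71.4%, against 4.26%). The called gene was Gp9, a subunit of the von Willebrand factor receptor, which rose 2.63-fold (21.5 to 127 against 30.8 to 316 normalized reads, adjusted p = 0.0366). Platelet sums were 2309 to 8340 in Control and 2790.3 to 18324 in PD. Neutrophil sums were 2961 to 9525 and 13322 to 28243 in Sham Control and PD, and 6702 to 16545 and 10601 to 30691 in 5/6Nx Control and PD. The part of blood content in the neutrophil result was not tested.

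**Figure D1:**
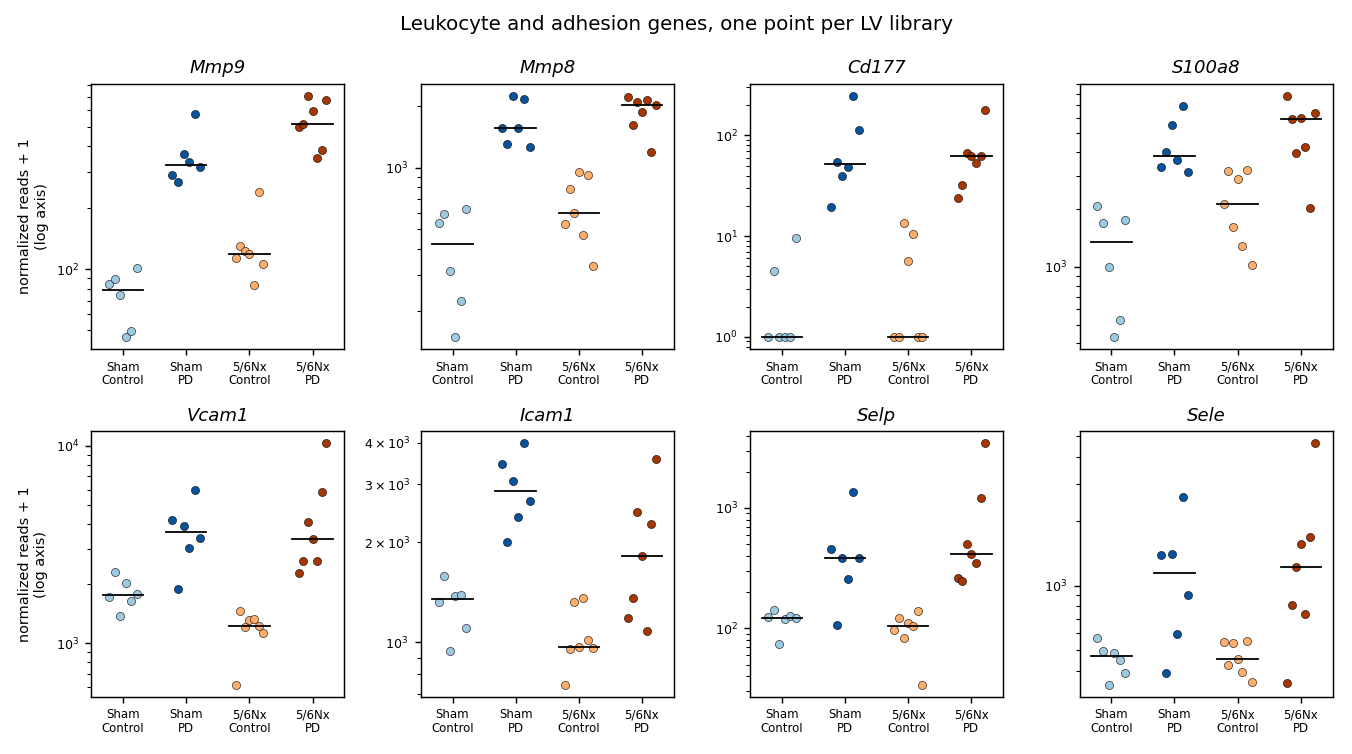
Normalized reads plus 1 (log axis) of 8 genes in each LV library, with a point per library, 6 per Sham group and 7 per 5/6Nx group, and a line at the median of each group. Mmp9, Mmp8 and Cd177 have all PD points above all Control points, while S100a8 and the adhesion molecules Vcam1, Icam1, Selp and Sele have 1 to 3 PD libraries within the Control range.

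Adhesion molecules of the endothelium rose in 4 of 9 tested cases (44.4%, against 0.349% of all genes). Vcam1, which binds the integrin of monocytes and lymphocytes, had 617 to 2299.8 (median 1365) normalized reads in Control against 1884 to 10269 (median 3408) in PD. Only Sham PD replicate 2 and 5/6Nx PD replicate 1 fell within the Control range, and the gene rose 2.80-fold (log2 change 1.32, standard error 0.20, adjusted p = 0.000712). Selp, P-selectin, which endothelium and platelets store and bring to the surface, had 33.1 to 142 (median 119) in Control against 106 to 3436 (median 386) in PD. All PD libraries but Sham PD replicate 2 were above all of Control. The mean rose 6.74-fold (log2 change 1.55, standard error 0.29, adjusted p = 0.00705), and a large part of that mean came from 5/6Nx PD replicate 7 (3436) and Sham PD replicate 5 (1357).

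Icam1, the ligand of leukocyte integrins, went from 745 to 1589 (median 1102) normalized reads to 1078 to 3977 (median 2386), a 2.08-fold rise (adjusted p = 0.00139). Its 3 PD libraries within the Control range were all from 5/6Nx rats. Sele, E-selectin, which endothelium makes only after activation, had 344 to 569.8 (median 452) in Control against 351 to 4622 (median 1216) in PD, and rose 3.05-fold (log2 change 1.12, standard error 0.25, adjusted p = 0.0365). The other 5 members, Madcam1, Icam2, Cd34, Jam2 and Jam3, were not called, with log2 changes of -0.11 to 0.16. Of 12 endothelial markers 0 were called in limma and 1 had an unadjusted p under 0.05, with a median log2 change of 0.12. The median was 0.25 in Sham rats, where Eng was called in the fit of Sham rats alone (log2 change 0.71, adjusted p = 0.0153), and 0.0084 in 5/6Nx rats. Endothelial sums were 178347 to 226096 in Sham Control against 184965 to 296330.0 in Sham PD, and their part in the adhesion molecule result was not tested. Among the 30 tested chemokines and chemokine receptors 0 were called. At an unadjusted p under 0.05, 5 were higher and 1 lower (16.7% and 3.33%, against 4.26% and 3.67% of all genes). Cxcl1, a neutrophil attractant, had medians of 53.8 and 117 normalized reads (adjusted p = 0.164).

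Acute phase and cytokine signaling genes rose in 5 of 23 cases (21.7%, against 0.349% of all genes). At an unadjusted p under 0.05, 9 were higher (39.1%, against 4.26%), with a median change of 0.20. The median was 0.42 in Sham and 0.0062 in 5/6Nx rats. In the fits of each operation alone, 6 members were called in Sham and 0 in 5/6Nx rats, and 0 interactions were called. Hp, haptoglobin, which binds free hemoglobin, had 121 to 534 (median 281) normalized reads in Control against 372 to 1747 (median 673) in PD, a rise of 2.84-fold (log2 change 1.17, standard error 0.21, adjusted p = 0.00366). Socs3, the feedback inhibitor of interleukin-6 signaling, went from 165 to 457 (median 291) to 362 to 1425 (median 594). Its log2 change was 0.80 in both operations (2.09-fold, adjusted p = 0.00653). Bcl3, a nuclear partner of NF-kB, rose 1.84-fold with 10 PD libraries above all of Control (adjusted p = 0.0117). Serpinb1a, a serpin that blocks neutrophil elastase, and Reg3g, a secreted antibacterial lectin, rose 2.60- and 3.13-fold on the mean (adjusted p = 0.0116 and 0.0317). Log2 changes in Sham and 5/6Nx rats were 1.65 and 0.76 for Hp, 1.81 and 0.60 for Serpinb1a, and 2.73 and 0.93 for Reg3g. Reg3g was spread widest, with 74.5 to 2327 normalized reads in Control and 461 to 5666 in PD, and 8 PD libraries lay within the Control range. Cebpd, Stat3 and Lbp, further acute phase genes, had log2 changes of 0.69, 0.20 and 0.30 and were not called (adjusted p = 0.160, 0.256 and 0.380).

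Several called genes outside the lists are known from myeloid cells or cytokine signaling, and were singled out after their values had been seen unless they were among the 15 higher genes of smallest adjusted p. Pim1, a kinase induced by cytokines, had 169.7 to 356 (median 265) normalized reads in Control against 342 to 555 (median 426) in PD, with 11 PD libraries above all of Control (1.59-fold, log2 change 0.51, standard error 0.07, adjusted p = 0.000107). Ifitm6, of the interferon-induced transmembrane family, rose 4.68-fold from a median of 16.9 to 76.9 (adjusted p = 0.000712), and 12 of 13 PD libraries lay above all of Control. Pglyrp1, a peptidoglycan recognition protein of granules, and Pram1, an adaptor of myeloid cells, rose 2.47- and 2.10-fold (adjusted p = 0.000838 and 0.000735). Hk3, a hexokinase of leukocytes, and Csf2rb, the shared receptor chain for GM-CSF and interleukin-3, rose 1.93- and 1.73-fold (adjusted p = 0.00910 and 0.0317). Ceacam4 and LOC103689942 rose 2.27- and 2.38-fold (both adjusted p = 0.0117), but had equal numbers of reads in 21 of 26 libraries, so the pair may hold the same reads. Macrophage genes had 0 calls of 16 in the common fit in limma, 0 also at an unadjusted p under 0.05, and a median change of 0.06. This averaged medians of opposite sign, 0.63 in Sham and -0.46 in 5/6Nx rats. In the fit of Sham rats alone 8 were called, and the interaction was called in 7 of 16. Over all genes, called interactions fell from 113 to 2 without Sham Control replicate 4, and these 7 were not followed there. T, B and NK cell genes had 0 calls of 15, 0 also at an unadjusted p under 0.05, and a median of -0.03.

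**Figure D2:**
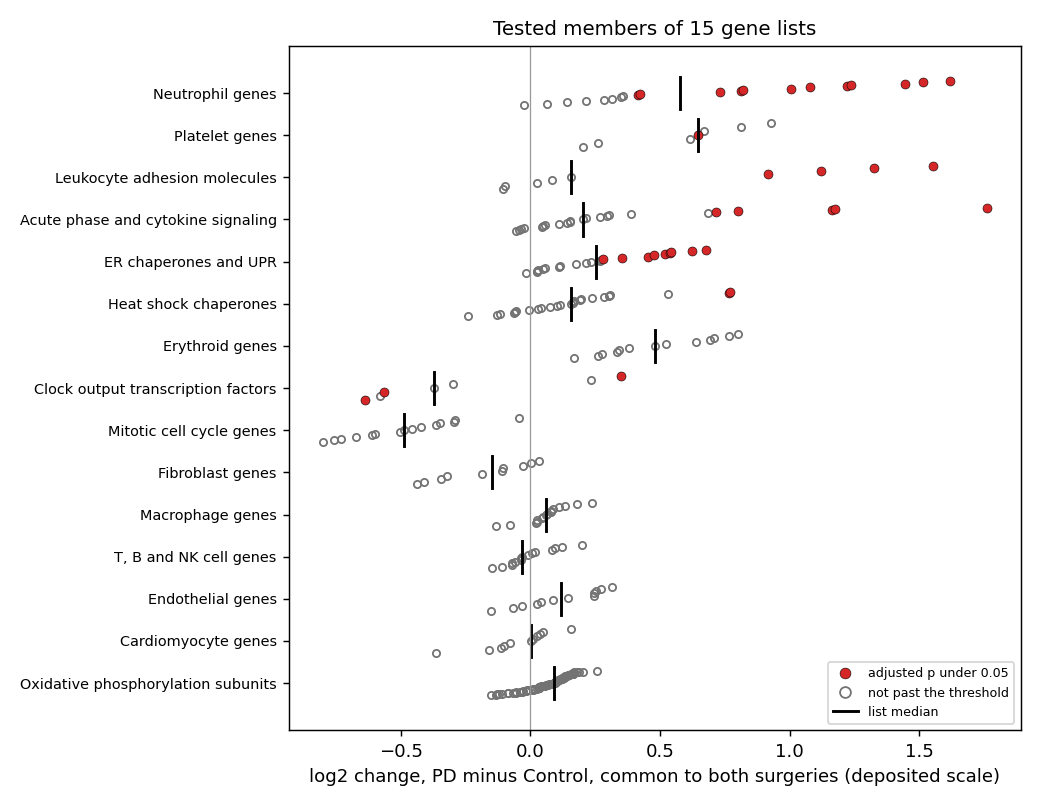
The log2 change with PD in LV (horizontal axis, common to both operations) of each tested member of 15 gene lists, 1 row per list, with filled points for genes that passed an adjusted p under 0.05 and a bar at the median of the list. Neutrophil genes have 12 filled points of 20 and a median of 0.58, ER genes 9 of 22 and a median of 0.25, while mitotic genes lie to the left (median -0.49) with 0 filled points.

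ER chaperones and genes of the unfolded protein response rose in 9 of 22 cases (40.9%, against 0.349% of all genes). At an unadjusted p under 0.05 there were 14 higher (63.6%, against 4.26% of all genes) and 0 lower members, and 21 of 22 changes were positive. Hspa5, the ER chaperone BiP, had 21328 to 31761 (median 24916) normalized reads in Control against 30380.4 to 56767 (median 37579.8) in PD. Of the PD libraries, 10 were above all of Control and the other 3 at its upper end. Hspa5 rose 1.56-fold, with a log2 change of 0.61 in Sham and 0.63 in 5/6Nx rats (common log2 change 0.62, standard error 0.09, adjusted p = 0.000712). Hsp90b1, the ER member of the Hsp90 family, had 12903 to 20028 (median 15398) in Control against 16731 to 38199 (median 21314) in PD. Its 4 PD libraries within the Control range were all from 5/6Nx rats (1.47-fold, log2 change 0.52, standard error 0.09, adjusted p = 0.00325). Creld2, an ER stress-inducible protein, rose most on the mean (1.76-fold, medians 708 and 1135 normalized reads, adjusted p = 0.00364).

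Sdf2l1, a cofactor of Hspa5, rose 1.58-fold, Pdia4, a disulfide isomerase, 1.52-fold, Manf, a secreted ER protein, 1.40-fold, and Hyou1, an ER Hsp70 relative, 1.40-fold (adjusted p = 0.00954, 0.0117, 0.0116 and 0.0206). Calr, calreticulin, and Xbp1, a transcription factor of the response, rose 1.29- and 1.23-fold (adjusted p = 0.0215 and 0.0422). Pdia6, Pdia3 and Dnajc3 were at log2 changes of 0.27, 0.27 and 0.24 without a call (adjusted p = 0.0616, 0.136 and 0.136). Other members stayed near the value for all genes, with Atf4 at 0.11, Ddit3 (CHOP) at 0.03, Herpud1 at 0.03 and Atf6 at -0.02. Which arm of the response was active was not tested. The summed reads of the list were 146788 to 187251 in Control and 170232 to 277379 in PD, where Sham PD replicates 5 and 6 had the highest Hspa5 and Hsp90b1 values. Another 2 called genes outside the list act on collagen in the ER, and were looked at because they passed the test. P4ha1, which hydroxylates collagen, had 1289 to 2239.8 (median 1977) normalized reads in Control against 1828 to 8492 (median 3089) in PD (1.84-fold, adjusted p = 0.00364), and Serpinh1, the collagen chaperone Hsp47, rose 1.39-fold (adjusted p = 0.0317). Among the 37 tested collagen chains 0 were called in limma, with 3 higher and 2 lower at an unadjusted p under 0.05 and a median change of -0.10. The collagen median was 0.07 in Sham and -0.22 in 5/6Nx rats, with 2 interactions called. The count of called interactions depended on single libraries, as given below.

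Of 25 heat shock genes 2 rose (8.00%, against 0.349% of all genes), Hspa1a and Hspa1b, the inducible Hsp70 copies. Hspa1a had 292 to 555 (median 449) normalized reads in Control against 438 to 1427 (median 806) in PD, with 10 PD libraries above all of Control (1.93-fold, log2 change 0.76, standard error 0.13, adjusted p = 0.00206). Hspa1b rose 1.93-fold as well (adjusted p = 0.00325), and since these genes are near-identical copies, the division of reads between them is uncertain. A further 8 had a positive change at an unadjusted p under 0.05 (40.0% with the 2 called, against 4.26% of all genes). Hspb1, the small heat shock protein Hsp27, was at 0.53 (adjusted p = 0.0881), and Bag3 and Cryab, also heat-inducible, at 0.04 and -0.0034. Rbm3, an RNA-binding protein made in the cold, had 3203 to 5819.8 (median 4108) normalized reads in Control against 2192 to 3777 (median 3018) in PD. It was below all of Control in 8 PD libraries and fell to 0.714 of Control (log2 change -0.47, standard error 0.10, adjusted p = 0.0196). Cirbp, the other cold-inducible RNA-binding protein, was at -0.05 (adjusted p = 0.933). Body temperature is not given in the sources used here.

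Clock output genes changed in 3 of 7 cases, with 2 falls (28.6%, against 0.0674% of all genes) and 1 rise (14.3%, against 0.349%). All 7 had an unadjusted p under 0.05, 71.4% lower and 28.6% higher, against 3.67% and 4.26% of all genes. Dbp, a transcription factor driven directly by the clock, had 6377 to 12335 (median 9435) normalized reads in Control against 3251 to 10126 (median 6048) in PD. It was below all of Control in 8 PD libraries, and fell to 0.666 of Control (log2 change -0.64, standard error 0.12, adjusted p = 0.0110). Ciart, a repressor within the clock, fell to 0.637 (medians 659 and 428, adjusted p = 0.0317), and Nfil3, which binds the same DNA elements as Dbp and opposes it, rose 1.32-fold (medians 609.6 and 811, adjusted p = 0.0272). Nfil3 overlapped most, with 10 PD libraries within the Control range. Tef and Hlf, relatives of Dbp, and Bhlhe41 had log2 changes of -0.37, -0.30 and -0.58, and Bhlhe40 of 0.23, without a call. Among 12 core clock genes 0 were called in limma, with 2 higher and 3 lower at an unadjusted p under 0.05. Arntl (Bmal1), the positive arm, was at 0.75 (medians 234 and 452 normalized reads, adjusted p = 0.0554), and Per1 of the negative arm at -0.51 (adjusted p = 0.275). Wee1, a cell cycle kinase that the clock controls in mouse liver, fell to 0.807 of Control (adjusted p = 0.0424).

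**Figure D3:**
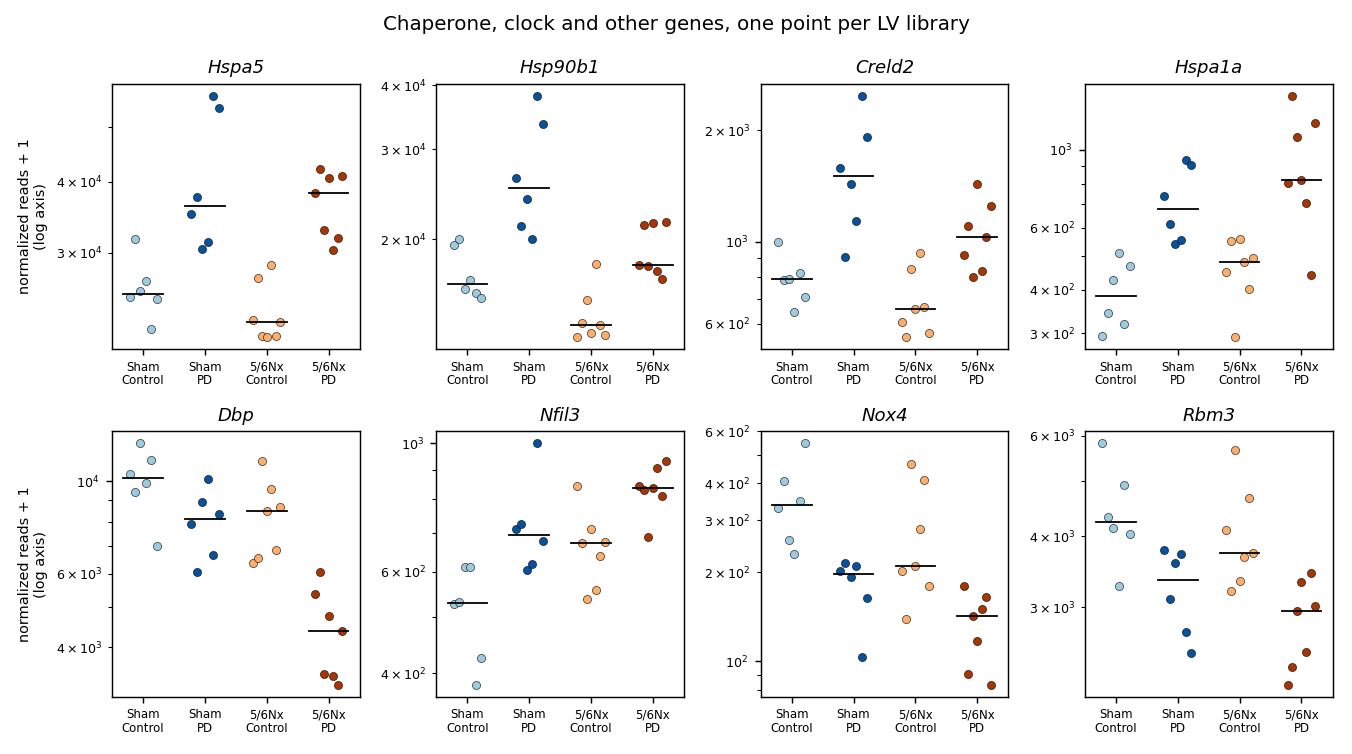
Normalized reads plus 1 (log axis) of 4 chaperone genes, 2 clock output genes, Nox4 and Rbm3 in each LV library, with a point per library, 6 per Sham group and 7 per 5/6Nx group, and a line at the median of each group. Hspa5 has 10 of 13 PD libraries above all Control libraries, while Nfil3 has 10 of 13 within the Control range.

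The remaining called genes fell into no list or a list of their own. Nox4, the NADPH oxidase that makes hydrogen peroxide without activation, had 138 to 545 (median 279) normalized reads in Control against 82.3 to 215 (median 162) in PD. It fell to 0.501 of Control on the mean (log2 change -0.65, standard error 0.13, adjusted p = 0.00987), although 9 PD libraries lay within the Control range. The other 7 tested subunits of the oxidases were not called, and Cybb, the catalytic subunit of phagocytes, was at -0.06. Lrtm2, a leucine-rich repeat membrane protein, had the smallest adjusted p among lower genes. It had 25.3 to 79.7 (median 49.4) normalized reads in Control against 0 to 54.9 (median 15.6) in PD, with 11 PD libraries below all of Control (0.344 of Control, adjusted p = 0.00653). Slc16a12, a creatine transporter, and Osr1, a transcription factor of heart and kidney development, fell to 0.602 and 0.623 of Control (adjusted p = 0.0110 and 0.0228). Robo2, a receptor for Slit ligands, fell to 0.338 (medians 36.9 and 9.04, adjusted p = 0.0228), and Arnt2, a basic helix-loop-helix partner protein, to 0.539 (medians 45.0 and 22.5, adjusted p = 0.0457).

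Bub1b, a kinase of the mitotic spindle checkpoint, had 36.1 to 153 (median 67.0) normalized reads in Control against 0 to 85.6 (median 26.8) in PD, and fell to 0.377 of Control (log2 change -0.65, standard error 0.15, adjusted p = 0.0475). Among the 15 tested genes of the mitotic list, which does not hold Bub1b, 0 were called in limma. Yet all 15 changes were negative, with a median of -0.49, and 13 had an unadjusted p under 0.05 (86.7%, against 3.67% of all genes). Prc1 and Cenpf, both of the dividing cell's spindle and centromere, were at -0.80 and -0.76 (adjusted p = 0.283 and 0.182). Mki67 overlapped throughout, with 248 to 2264 normalized reads in Control and 208 to 1439.6 in PD (log2 change -0.67, adjusted p = 0.521). Summed reads of the list were 1535 to 7915 in Control and 1176 to 5245 in PD.

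Higher genes of metabolism and signaling included Cyp26b1, Ucp3 and G0s2. Ucp3, the mitochondrial uncoupling protein of muscle, rose 1.77-fold (medians 237 and 496 normalized reads, adjusted p = 0.0317), the only call among 25 genes of fatty acid oxidation and PPAR targets. G0s2, an inhibitor of the lipase that starts triglyceride breakdown, rose 1.79-fold (medians 1398 and 2379, adjusted p = 0.00920). Rrad, a GTPase that restrains calcium channels in the heart, rose 1.33-fold from a median of 10366 to 13542 (adjusted p = 0.0230), while 0 of 24 genes of calcium handling and ion channels were called. Of those 24 changes 1 was positive. Their median was -0.17, with -0.44 in Sham and 0.06 in 5/6Nx rats. Ndrg1 and Mxi1, both induced by low oxygen, rose 1.67- and 1.30-fold (adjusted p = 0.0422 and 0.0403). F2rl2, a protease-activated receptor, rose 2.19-fold, and Ptk6, a cytoplasmic tyrosine kinase, 3.73-fold (adjusted p = 0.0117 and 0.0348). Small changes were called for Arid5a, an RNA-binding protein that stabilises interleukin-6 mRNA, Ahsa2, a relative of an Hsp90 co-chaperone, Banp, a nuclear matrix protein, and Grip2, a glutamate receptor scaffold, at 1.19-, 1.31-, 1.30- and 1.34-fold (adjusted p = 0.0260, 0.0475, 0.0430 and 0.0229). RGD1563056 rose 3.00-fold from few reads (adjusted p = 0.0424). These genes were named because they passed the test.

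Many lists for heart tissue had no member called in limma. Cardiomyocyte genes (11 tested) had a median log2 change of 0.00136 with 0 at an unadjusted p under 0.05, and fibroblast genes (10) a median of -0.15 with 3 lower. Smooth muscle and pericyte genes (8) had a median of -0.03 with 2 higher and 1 lower. These medians averaged opposite signs in Sham and 5/6Nx rats. They were -0.24 and 0.06 for cardiomyocyte, 0.10 and -0.36 for fibroblast, and 0.28 and -0.18 for smooth muscle and pericyte genes. Of 9 natriuretic and fetal heart genes, Ankrd1 and Acta1 were at -0.48 and -0.46 and Nppb at 0.39 (adjusted p = 0.192, 0.464 and 0.427). The median of these 9 genes was 0.21 in Sham and -0.44 in 5/6Nx rats. Oxidative phosphorylation subunits had 0 of 84 called, 1 at an unadjusted p under 0.05 and a median of 0.09. Cytosolic ribosomal proteins had 0 of 98 called, 1 at an unadjusted p under 0.05 and a median of 0.11. Antigen presentation genes and NRF2 targets had 0 members each at an unadjusted p under 0.05. Complement components also had 0 of 21 there, but with medians of 0.59 in Sham and -0.31 in 5/6Nx rats and 5 called interactions. These interactions were not followed with 1 library left out. Complement sums did not overlap in Sham rats (66039 to 89559 in Control, 104508 to 115884 in PD).

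**Figure D4:**
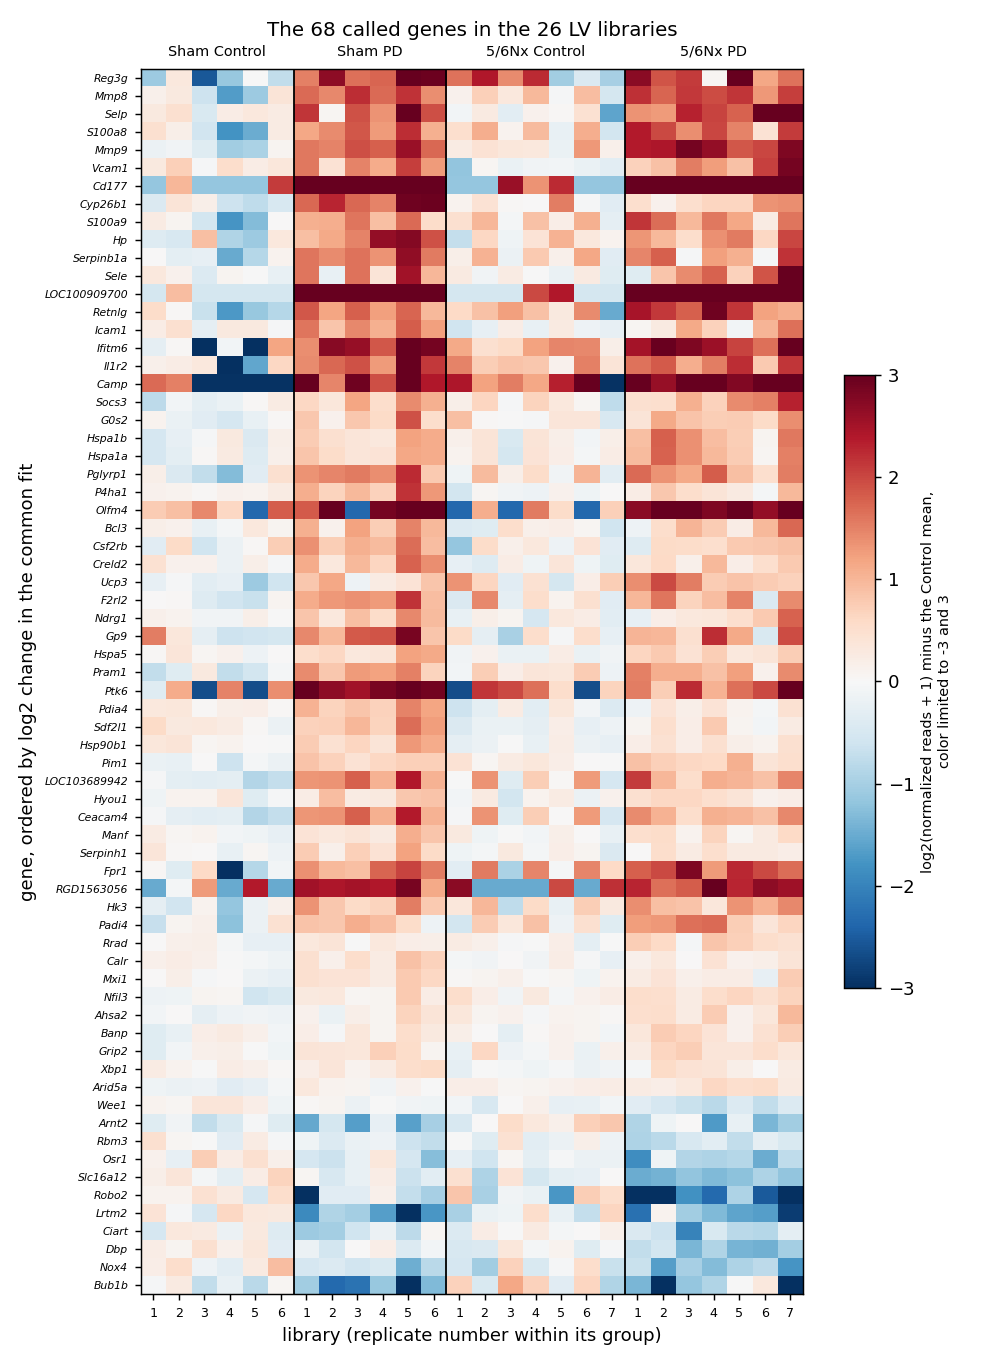
Log2 of normalized reads plus 1, minus the mean over the 13 Control libraries, for the 68 called genes (rows) in the 26 LV libraries (columns, by group), with colors limited to -3 to 3. PD libraries of both operations are above the Control mean in the 57 higher genes on average. On the deposited log2 scale, not that of the colors, this mean is 0.52 to 1.32 per PD library, against -0.24 to 0.23 per Control library.

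Over the 57 higher genes, the mean difference from Control on the deposited log2 scale was 0.52 to 1.32 in the 13 PD libraries. It was -0.24 to 0.23 in the 13 Control libraries. Over the 11 lower genes it was -0.76 to -0.11 in PD and -0.32 to 0.21 in Control. The genes were chosen for this difference, so the ranges only show how it was spread. Sham PD replicate 5 was the highest PD library in 29 of the 57 higher genes and 5/6Nx PD replicate 7 in 7, whereas 5/6Nx PD replicate 6 was the lowest in 16. With Sham PD replicate 5 and 5/6Nx PD replicate 7 both left out, a fit added after the data had been seen, 49 genes were called, all of them among the 68. In that fit 11 of 19 neutrophil genes, 4 of 9 adhesion molecules, 4 of 23 acute phase genes, 7 of 22 ER genes and both Hsp70 copies rose, and 2 of 7 clock output genes fell, while Rbm3 and Gp9 were no longer called.

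In the fits of each operation alone, 194 of 15759 genes were called in Sham rats and 14 of 15622 in 5/6Nx rats. With the spread taken from all 26 libraries the same contrasts gave 103 and 57 calls. Of the 68 genes of the common fit, 5 were called in both, 33 in Sham only, 3 in 5/6Nx only and 27 in neither. The 5 were Mmp9, Mmp8, LOC100909700, Cd177 and Vcam1, and those of 5/6Nx only were Hspa5, Olfm4 and Dbp. The 27 genes that neither operation called alone comprised 19 higher genes, such as Hsp90b1, Selp, Fpr1, G0s2, Manf and Sele, and 8 lower genes, such as Nox4, Slc16a12 and Rbm3. Of the 57 higher genes 44 had the larger change in Sham rats, and of the 11 lower genes 8 had the larger fall in 5/6Nx rats. A call in 1 operation and not in the other does not show a difference between them, which was tested as an interaction.

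Among the 68 genes 1 differed between operations in this test, Cyp26b1, which degrades retinoic acid. It had 286 to 1394 (median 484) normalized reads in Control against 529.9 to 3701 (median 1275) in PD, with medians of 351 and 1982 in Sham and of 494 and 749.9 in 5/6Nx rats. The log2 change was 2.18 in Sham and 0.42 in 5/6Nx rats, and the difference between them was -1.76 (adjusted p = 0.0264 for the interaction), so the common change of 1.23 (standard error 0.24, adjusted p = 0.0116) is an average of unequal changes. With 1 library left out at a time the interaction was called in 24 of 26 fits, and not without Sham Control replicate 4 (adjusted p = 0.0575) or Sham PD replicate 5 (adjusted p = 0.0528). Over all genes tested 113 interactions were called (0.693%), a count that ran from 2 without Sham Control replicate 4 to 695 without 5/6Nx Control replicate 1. The interactions reported here for list members are part of the 113. Apart from Cyp26b1 they were not followed with 1 library left out. The other 67 of the 68 genes were not called in the interaction test, which does not show that their changes were equal.

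**Figure D5:**
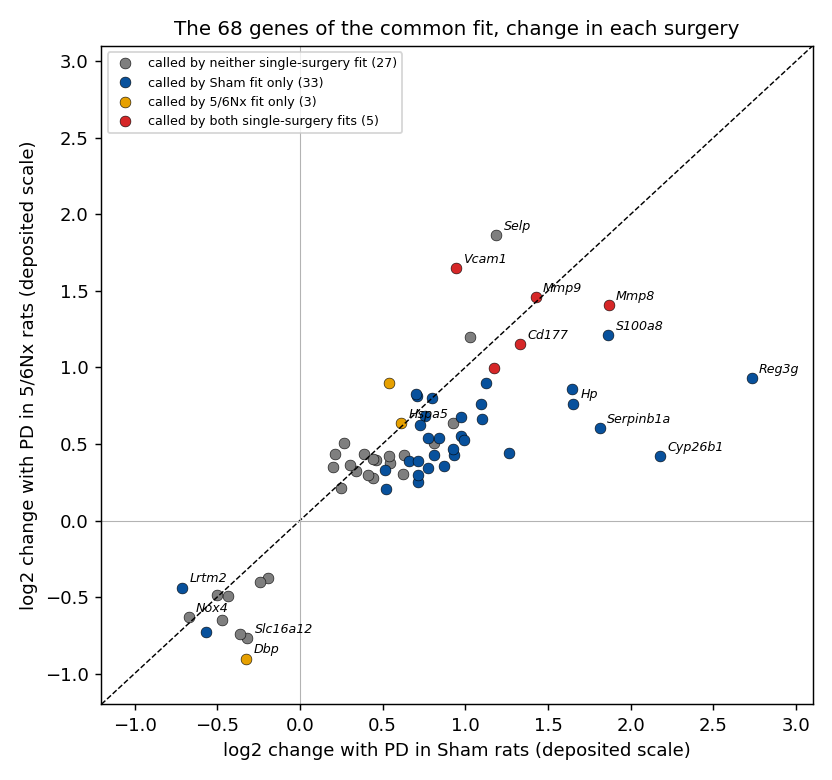
The log2 change with PD in Sham rats (horizontal axis) and in 5/6Nx rats (vertical axis) of the 68 genes called in the common fit, colored by the operation in which the gene was also called alone. All points lie in the quadrants of equal sign, which the choice of genes by a common PD term favors. Cyp26b1 (2.18 and 0.42) is the gene with a called interaction.

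Of the 68 calls, 46 held in each of the 26 fits that left out 1 library. Among the list members, 11 of 12 neutrophil genes (not Padi4), 3 of 4 adhesion molecules (not Sele), 8 of 9 ER genes (not Xbp1), 4 of 5 acute phase genes (not Reg3g), both Hsp70 copies, Rbm3 and Nox4 held in every fit, as did Dbp of the clock output genes. Osr1 and Rrad were lost only without Sham Control replicate 5. Serpinh1, Ucp3, Ciart, Reg3g, Csf2rb, Ptk6, Padi4, Sele, Gp9, Mxi1, Xbp1, Ndrg1, Wee1, RGD1563056, Banp, Arnt2, Ahsa2 and Bub1b were lost without any of several libraries, as were Arid5a and Nfil3 (highest adjusted p 0.0980 among all fits), with no change of direction. Among genes that held there, Olfm4, Il1r2 and Robo2 were lost under other scalings (log2 of normalized reads plus 1, LV size factors, trimmed mean of M values) and with plain voom (highest adjusted p 0.290, 0.178 and 0.161), and Sdf2l1, Dbp, Slc16a12, Pdia4 and Calr without the surgery term. Bub1b was called in 3 of 13 other settings. The difference between the mean log2 values of endothelial and cardiomyocyte genes, a measure of tissue makeup, was -5.59 to -3.19 (median -4.49) in PD and -5.51 to -3.78 (median -4.38) in Control. Within each operation the median was higher in PD, at -3.73 against -4.18 in Sham and at -4.76 against -4.89 in 5/6Nx rats. With it as a further term, added after the data had been seen, 117 genes were called, among them all 68. The measure holds no member of the neutrophil, erythroid or platelet lists, so this fit could not address the share of blood cells.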

How the data were processed

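The authors trimmed the paired reads with Trim Galore and cutadapt, aligned them to rn6 with HISAT2 (2.1.1 per the submitters' processing notes, another version in the study's methods), assembled and quantified genes with StringTie2 and used DESeq2, from a stranded library of polyadenylated RNA. They deposited 1 table of log2 values for 20624 genes in the 52 LV and kidney libraries. No source gives the scale of this table, but the authors' log2 values match DESeq2's variance stabilising transformation over both tissues, with 5.92 standing for 0 reads. Inverting it gave whole reads for 100% of values within 0.01 read. The authors' tables of fold changes, p-values and adjusted p-values for their own comparisons were not used. No LV library repeats another of its group (chi-square per gene 21.8 to 221.7 over 72 pairs). The labels do not number the rats, so p-values measure the spread between these samples.

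A linear model of the deposited log2 values, with terms for PD and for surgery and no interaction, was fitted to each gene in R 4.3.3 by lmFit of limma 3.58.1, and moderated by eBayes (trend = TRUE, robust = TRUE, which calls statmod 1.5.0). Genes with at least 10 normalized reads in at least 6 of the 26 LV libraries were tested, and a gene was called at a Benjamini-Hochberg adjusted p under 0.05. The change in each operation and the interaction came from a fit of the 4 group means. The script was tested on simulated data. Alternatives changed the surgery term, the weight of each operation, the filter, the scaling, the test and the libraries. Those with a tissue makeup term and without both highest PD libraries were chosen after seeing the data. The members of 42 gene lists were chosen with earlier results of these data known. Named genes are the 15 higher and 15 lower called genes that head the order by adjusted p and average 20 normalized reads or more in a group, up to 4 called members per list (else the member with the most reads), genes without overlap, 5 genes per direction called only in the common fit, LOC100909700 and the tissue markers. Other called genes and list members were named after their values had been seen. Depth of 31.0 to 111.8 M reads per LV library limits precision for genes with few reads, and 4312 genes did not reach the filter. Some listed genes are not reported here.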

Additional observations from a re-analysis of the deposited data

Results flagged for a closer look

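Over 300 groups of 6 or 7 libraries of named genes, a single library stood far from the rest of its group, by the gap to its neighbour against the range of the group, in 20 cases. Chance gives about 1 in 20 groups. Sham PD replicate 5 was the library set apart in 4 of the called genes, with 5326 normalized reads of G0s2 (others 1555 to 2469), 2481 of Serpinb1a (998 to 1209), 999 of Nfil3 (603 to 723) and 0 of Lrtm2 (12.8 to 26.8). Cd177 reached 179 in 5/6Nx PD replicate 7 (others 22.8 to 66.3). Robo2 was at 0 in Sham PD replicate 1 (others 16.7 to 38.4), Ciart at 161 in 5/6Nx PD replicate 3 (359 to 537), and Jun at 7333 in Sham PD replicate 2. Among Control libraries, Mmp9 stood at 237 in 5/6Nx replicate 6 (others 82.7 to 128), Cyp26b1 at 1394 in 5/6Nx replicate 5 (382 to 656), Selp at 73.3 in Sham replicate 3 (119 to 142), and Vcam1 at 617 in 5/6Nx replicate 1 (1132 to 1455). LOC100909700 had 1.73 normalized reads in Sham Control replicate 2 and 0 in the other 5 libraries of that group.

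5/6Nx Control replicate 1 was also set apart in genes that were not called, with 20909.9 normalized reads of Cd59, 42333 of Map1lc3a, 125152 of Ldha, 95270.2 of Rplp0 and 191 of Cd4. Cd59 was also set apart in Sham Control replicate 2 (13006), and Igfbp7 in 5/6Nx Control replicate 3 (25429.5). Cyp26b1 differed between the operations by an interaction test in limma, with a change in 5/6Nx minus that in Sham rats of -1.76 on the log2 scale (adjusted p = 0.0264).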

How the results depend on the processing

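No called gene changed direction under any alternative, and 36 of the 68 were called in all 14 alternatives, beside the 26 that leave out 1 library, that tested them. The count of 68 genes became 119 with voom and sample quality weights, 152 with array quality weights and 117 with the tissue makeup term (73 higher and 44 lower, so 62.4% higher against 83.8%), all of these above 1.5 times the count. The other settings gave 46 (no surgery term) to 84 (operations weighted equally), and leaving out 1 library 48 (without Sham Control replicate 5) to 79. Called list members numbered 40 and were 31 to 58 across these settings. The 12 neutrophil calls became 6 when 100 reads in 6 libraries were asked for, since fewer members were tested, and the 9 ER calls became 5 without the surgery term. The 113 interactions became 57 with no filter, 1023 with voom and sample quality weights, 65 without both highest PD libraries, and 2 to 695 with 1 library left out. Contrasts within Sham and 5/6Nx rats gave 103 and 57 calls in the joint fit and 194 and 14 from the libraries of that operation alone. The count of 4 genes without overlap was 4 to 6 with 1 library left out. Direction reversed in 9 of 75 named genes, 0 of them called, whose log2 changes were near 0: Cd4 (0.052 with weighted and 0.025 with plain voom), Igfbp7 (0.024 with weighted voom, 0.035 with array weights), Wt1 (0.028 and 0.031 in the same order), Tnnt2 (-0.0065 with LV size factors), and Fgf1, Atp2a2 and Atp5b (0.011, 0.024 and 0.0085 with the tissue makeup term). With 1 library left out, Atp5b ran from -0.035 to 0.017, Cd4 from -0.16 to 0.0014, Igfbp7 from -0.056 to 0.025, Myh7 from -0.14 to 0.020, Nfkbia from -0.093 to 0.067, Tnnt2 from -0.032 to 0.043 and Wt1 from -0.076 to 0.025. The cause of these shifts was not tested, apart from the filter on tested members. PD and Control libraries were not paired, since rats were randomly assigned to receive dialysate or not. The labels and columns carry no replicate numbers, and those used here follow accession order.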

Other observations

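Among lists without a call, 2 genes had wide PD ranges. Fgf23, the bone hormone that lowers phosphate, had 0 to 38.6 (median 23.8) normalized reads in Control and 0 to 778 (median 78.3) with PD. In 12 PD libraries it was above all of Control, but it did not pass the test in limma (log2 change 0.91, standard error 0.27, adjusted p = 0.182). Of 18 FGF ligands and receptors tested it was the only one at an unadjusted p under 0.05. In the fit of Sham rats alone 1 of the 18 was called, and 1 interaction was called. Mt2A, a zinc-binding metallothionein, ran from 472 to 1723 (median 646) in Control and from 635 to 9118 (median 1276) with PD (log2 change 1.03, standard error 0.31, adjusted p = 0.192). Of 11 metallothioneins and zinc transporters 4 were higher at an unadjusted p under 0.05, and Mt1 and Mt1m were at 0.52 and 0.46. Wisp2, a matricellular protein, was at -0.74 (adjusted p = 0.164), with 0.05 in Sham and -1.43 in 5/6Nx rats and a called interaction (adjusted p = 0.0279). That interaction was not followed with 1 library left out.

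Glucocorticoid receptor targets (16 tested) were divided, with Cebpd, Mt2A and Mt1 higher and Tsc22d3, Per1 and Ddit4 lower at an unadjusted p under 0.05 and a median log2 change of -0.03. Immediate early genes (20) had 3 higher members, Junb, Ier3 and Myc (log2 changes 0.63, 0.25 and 0.25), and interferon-stimulated genes (20) 2 higher, Bst2 and Rsad2, and 2 lower, Usp18 and Mx1 (0.41, 0.32, -0.34 and -0.68). Of 13 genes of the growth hormone and IGF axis, Igfbp5 and Socs2 were lower (-0.33 and -0.23), and of 18 matricellular genes 1 was higher and 3 were lower. Of 17 retinoic acid genes, Dhrs3 and Rxrg stood at 0.16 and 0.19 beside the called Cyp26b1. Vegfa was the only one of 17 angiogenic genes at an unadjusted p under 0.05 (0.25), Arrdc4 the only one of 16 genes of glucose use (0.61) and Ddit4 the only one of 16 genes of atrophy and autophagy (-0.33). The adipocyte (3) and mesothelial (5) genes had 0. None of the genes in this paragraph other than Cyp26b1 was called in the common fit.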
